A study of Drosophila melanogaster with 10 samples.

Results

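T5d neurons are 1 of the 8 subtypes of T4 and T5 neurons of the Drosophila visual system, and here they were taken as the 2247 of 56699 kept cells (3.96%) that carried a fixed combination of transcripts. A barcode was kept when it held at least 1000 unique molecular identifiers (UMIs, 1 per captured transcript), at most 10% mitochondrial and 10% heat shock transcripts, and at least 3 UMIs of SoxN, Sox102F and Lim1 together. A kept cell counted as T5d when it had 0 UMIs of TfAP-2, dpr2 and dpr3 and at least 1 of CG34355 (T5), at least 3 of pros and bi with at most 1 of dac and Dscam3 (subtypes c and d), and at least 2 of side-II with at most 1 of grn and side-IV (subtype d). The cells were thus selected on the measured UMIs of 14 genes, and their levels are given below as a description only.

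T4 and T5 neurons compute the direction of visual motion, T4 for moving bright edges and T5 for moving dark edges. T5 dendrites lie in the lobula, and each subtype sends its axon to a single layer of the lobula plate and prefers a different direction, with subtype d tuned to downward motion. During pupal life these cells orient their dendrites, find their partners and then build synapses, while pulses of the steroid hormone ecdysone time many of the transcriptional changes.

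The samples were 10 libraries of sorted pupal neurons, with 2 replicates for each of 5 stages of pupal life, namely 24, 36, 48, 60 and 72 h counted from puparium formation (h APF). All carried SS00324-Gal4 and, recombined with it, UAS-mCD8::GFP, so that a split driver expressed a membrane-tethered green fluorescent protein in every T4 and T5 neuron, and brains of both sexes were pooled. The cells were separated by fluorescence-activated sorting and sequenced as droplet libraries. No label gives the number of pupae per library or ties replicates to separate crosses. The tests between stages therefore measure the spread between libraries, which may be partly technical. Those between classes were made within libraries and measure how far the class difference varies from library to library.

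The libraries held 72871 barcodes and 338727250 UMIs in all, and between 81 and 371 T5d cells each. The summed T5d counts ran from 277704 UMIs (72 h APF, replicate 1) to 1924683 UMIs, and the median T5d cell had 4919 UMIs against 4802 for the other 54452 kept cells. Of all barcodes, 625 occurred in 2 or more libraries, with at most 53 shared by any pair. Each T5d sum was most like its own replicate across 6032 genes except the sum of 72 h replicate 2, which was nearer to 60 h replicate 1 (r = 0.931) than to 72 h replicate 1 (r = 0.909), and replicates differed more at 72 h (SD of the log2 difference over genes 1.02) than at the other stages (0.420 to 0.632). Markers of neurons (elav, nSyb, brp) were present in every library at a summed 2266 to 3997 UMIs per 1000000 UMIs of the summed cells (CPM). Haemocyte markers (Hml, NimC1, He) and the neuroblast genes dpn, ase and wor had 0 UMIs in T5d, as had the photoreceptor genes ninaE, ninaC and trp. The remaining neuroblast gene, mira, had a mean of 2.15 CPM in T5d. All 5 photoreceptor genes together summed to 80.0 to 604 CPM in T5d, led by norpA, against 132 to 782 CPM in the other kept cells. The 5 glial markers summed to 29.9 to 435 CPM, led by nrv2, against 47.8 to 451 CPM in the other kept cells.

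The genes of the gate differed in how well they were covered. The mean T5d cell held 6.86 to 21.0 UMIs of side-II, a receptor of the Sidestep family, and 10.9 to 24.3 UMIs of pros, a homeodomain factor, across the 10 libraries. For bi, the T-box factor of subtypes c and d, the mean was 8.02 and 6.18 UMIs per cell in the replicates of 24 h APF and 1.3/1.27 at 72 h. For CG34355 it was 1.22 to 2.55 UMIs per selected cell. Of the T5d cells, 1359 carried a single CG34355 UMI, and 3250 cells met every other condition but had none. At the other limits the numbers just inside and just outside were 46 and 30 cells for side-II, 22 and 18 for pros and bi, 89 and 31 for dac and Dscam3, and 138 and 21 for grn and side-IV, and 110 cells failed only through a single UMI of TfAP-2, dpr2 or dpr3. In all 4248 kept cells (7.49%) failed exactly 1 condition and are counted among the other kept cells.

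T5d cells made up 1.90 to 6.54% of the kept cells of a library. In the order of the stages, and as replicate 1/replicate 2, the share was 4.08/3.10, 6.54/3.80, 4.63/4.15, 5.55/5.21 and 1.90/4.17%. The replicates of 36 h and of 72 h lay further apart than those of the other stages. For a second share, kept cells of at least 2000 UMIs were thinned to 2000 UMIs before the gate, and the other kept cells were left out. The stage means then lay between 1.55 and 2.89%, against 3.04 to 5.38% for all kept cells without thinning. The share is thus a share of cells in which the transcripts were captured and not a share of neurons.

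**Figure D1:**
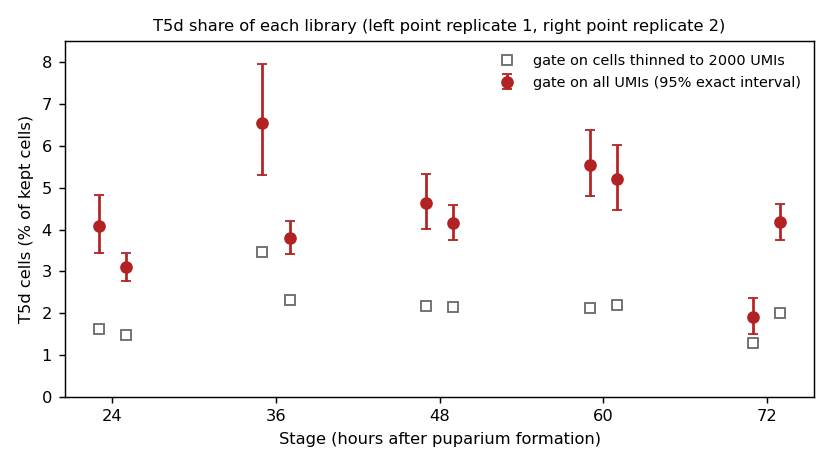
T5d cells as a percentage of kept cells in each library (y axis) by stage in hours after puparium formation (x axis), with exact 95% binomial intervals that cover counting error only. Open squares give the share among kept cells of at least 2000 UMIs after thinning each to 2000 UMIs. The replicates of 36 h and 72 h APF stand apart, at 6.54 and 3.80% and at 1.90 and 4.17%.

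CNMaR (FBgn0053696) was taken as a marker of T5d with earlier results of these data known, and it was not used in the gate. It encodes the receptor of the neuropeptide CNMamide and spans 9644109 to 9659433 on chromosome arm 3L of the BDGP6.54 assembly. Values below are given as replicate 1/replicate 2, and 5 pairs in a row stand for 24, 36, 48, 60 and 72 h in that order. Its level in T5d was 74.3/74.2, 8.67/11, 0/0, 0.732/0 and 0/0.620 CPM over the 5 stages. Both T5d libraries of 24 h lay above those of every class compared. At that stage CNMaR stood at 32.8 and 22.6 CPM in T5c, at 21.9 and 14.4 CPM in T4d, and at 5.32 and 3.5 CPM in T5a, and 0 UMIs were found in the 15 and 34 T5b cells. Of the T5d cells at 24 h, 24.6 and 23.0% carried a CNMaR UMI, against 15.6 and 8.64% of T5c, 9.23 and 5.22% of T4d, and 3.57 and 2.0% of T5a cells. After thinning to 1000 UMIs the shares were 5.97 and 6.97% in T5d and 5.21 and 1.82% in T5c, and those of replicate 1 were then close.

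The difference at 24 h APF was called against all 3 related classes (where 1.3, 0.586 and 2.01% of all genes were called for T4d, T5c and T5a) by the quasi-likelihood test of edgeR, with p-values adjusted over all genes after Benjamini and Hochberg, where a call needs an adjusted p under 0.05 and at least a 2-fold change. The log2 fold change of CNMaR was 2.11 (SE 0.21, adjusted p = 2.4e-12) against T4d, 1.51 (SE 0.27, adjusted p = 9.6e-05) against T5c and 4.14 (SE 0.66, adjusted p = 3.2e-06) against T5a. Without 24 h replicate 2 the fold change against T5c was 1.21 (adjusted p = 0.917) and that against T5a 3.81 (adjusted p = 0.0605), and neither was then called. At 36 h CNMaR was still called against T4d, at a log2 fold change of 3.33 (adjusted p = 0.00077), but not against all 3 classes. Without 36 h replicate 2 the fold change against T4d was 1.60 and not called. Stricter gates ended the calls at 24 h against T5c (2.05, adjusted p = 0.0711) and T5a (2.71, adjusted p = 0.660). They also ended that at 36 h against T4d (3.03, adjusted p = 0.222). Without the library block the call at 24 h against T5c was lost (1.48, adjusted p = 0.234). The call at 24 h against T4d was kept in each of these settings. CNMaR could thus be read in T5d at 24 and 36 h only, and from 48 h onwards it was at or near 0 in every T5d library.

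**Figure D2:**
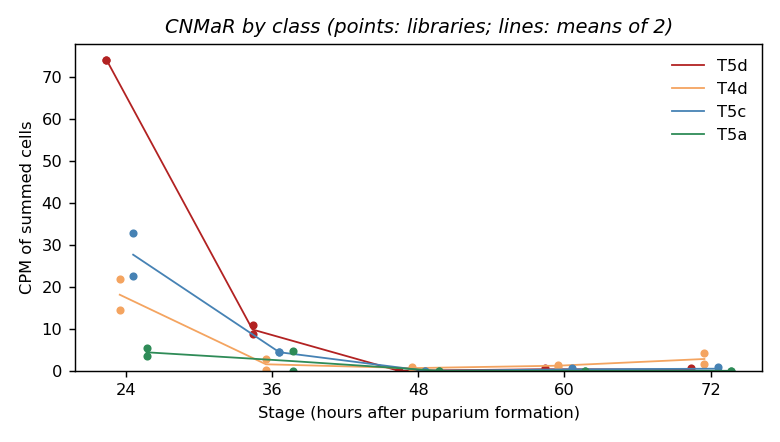
CNMaR in T5d, T4d, T5c and T5a cells: CPM of the summed cells (y axis) by stage in hours after puparium formation (x axis), with a point per library and lines through the means of 2 libraries. Both T5d libraries of 24 h lie at 74.3 and 74.2 CPM, above the highest T5c library at 32.8 CPM.

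T5d was next compared with the 3 classes nearest to it: T5c, the sister subtype of the same type (1834 cells), T4d, the same subtype of the other type (5234 cells), and T5a, the other side-II subtype of its type (482 cells). Their gates mirror that of T5d. All sums entered a single fit with the library as a block, so that each class was compared within its library, and the 3 comparisons share the T5d sums. Fold changes below are means over the 5 stages on the log2 scale unless a stage is named.

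Of the genes called against T5c, those with the widest gaps included the receptor genes beat-VI, Tl and drl. In all, 48 of 6481 genes were called (0.741%), 15 higher in T5d (0.231%) and 33 lower (0.509%). Without the gate genes these counts were 45, 14 and 31. The gene beat-VI (FBgn0039584, 3R, 28418208 to 28474814), of the Beaten path family of immunoglobulin receptors that bind Sidestep proteins, was 9.90/5.08, 5.78/9.44, 273/326, 553/582 and 699/920 CPM over the 5 stages in T5d. No T5c library exceeded 17.0 CPM, and the 6 T5d libraries from 48 h onwards lay above all of them. The log2 fold change of beat-VI was 5.02 (SE 0.34, adjusted p = 9.91e-20).

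Toll (Tl, FBgn0262473, 3R, 26799041 to 26842403), the founding Toll receptor, did not overlap between the classes at any stage. Its lowest, median and highest T5d libraries were at 95.9, 182 and 374 CPM, and those of T5c at 2.23, 7.6 and 26.4 CPM (log2 fold change 4.06, SE 0.14, adjusted p = 1.83e-35). T4d lay with T5d here, at 89.5 to 363 CPM.

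Ryk-type Wnt receptors were higher as well. Of 18 guidance genes tested 3 were called, all higher in T5d, where 0.231% of all genes were higher and 0.509% lower. All 3 belong to this family: Drl-2 at a log2 fold change of 3.08 (SE 0.24), drl at 2.66 (SE 0.17) and dnt at 1.21 (SE 0.15). For Drl-2 the lowest, median and highest libraries were 7.23, 68.4 and 369 CPM in T5d and 0, 3.23 and 92.0 CPM in T5c, and T5d was higher in 10 of 10 libraries. The difference in drl depended on the stage. At 48 h APF drl was 143 and 167 CPM in T5d and 215 and 131 CPM in T5c, whereas at 60 h it was 163 and 153 CPM against 2.07 and 0, and at 72 h 245 and 178 CPM against 13.6 and 6.96. The fold changes of drl at those late stages were 6.87 (SE 0.38, adjusted p = 6.09e-24) and 4.50 (SE 0.32, adjusted p = 1.44e-18). The gene fz2, of a Frizzled receptor that also binds Wnt ligands, overlaps 2 genes on its strand and separated at the same stages. It was 2130/2458 CPM at 60 h and 3590/2380 CPM at 72 h in T5d, against 414 and 503 and then 266 and 199 CPM in T5c, while at 36 h the values of T5c were 1715 and 1179 CPM and those of T5d 1428 and 1029 CPM. The log2 fold change of fz2 was 2.34 (SE 0.09) at 60 h and 3.64 (SE 0.12) at 72 h. Of 13 genes of TGF-beta and Wnt signalling tested, fz2 alone was called, beside 0.741% of all genes.

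Other genes higher in T5d than in T5c in 10 of 10 libraries were the Kekkon gene kek5 (log2 fold change 2.28, SE 0.20), friend of echinoid (fred), an adhesion gene (1.58, SE 0.09), mspo, an M-spondin gene that overlaps 2 genes on its strand (2.32, SE 0.33), and CG4168 (2.37, SE 0.15) and CG11319 (2.72, SE 0.46). The T5d libraries of kek5 ran from 7.36 to 67.3 CPM and those of T5c from 0.690 to 23.1 CPM, and within every library T5d was above T5c. For CG11319 the call was lost without 24 h replicate 1 (2.32, adjusted p = 0.114), and for mspo without the library block (2.43, adjusted p = 0.0631).

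The genes lower in T5d than in T5c were led by another Beaten path gene. The gene beat-IV (FBgn0039089, 3R, 23557412 to 23580077) had its lowest, median and highest libraries at 11.1, 30.8 and 98.7 CPM in T5d and at 131, 369 and 605 CPM in T5c, with no overlap (log2 fold change -3.01, SE 0.07, adjusted p = 8.47e-45). Also lower in 10 of 10 libraries were hig, which encodes a secreted protein of the synaptic cleft (-1.57, SE 0.08), CG34353, listed with the immunoglobulin adhesion genes (-1.27, SE 0.04), the short neuropeptide F receptor sNPF-R (-1.24, SE 0.08) and the Sidestep gene side-V (-1.21, SE 0.11). For hig the values at 24 h APF were 29.7 and 20.3 CPM in T5d and 197 and 153 CPM in T5c, and at 72 h they were 450 and 182 CPM against 460 and 244 CPM. For sNPF-R they were 7.43 and 4.44 CPM against 89.7/74.2 CPM at 24 h, and 523 and 497 CPM against 612/613 CPM at 60 h. In both genes the gap at the first stage was therefore wider than at the later one named, a change of the difference that was not tested.

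Also called lower, with the same sign in every library, were CG34155 (-2.46, SE 0.28), CG45263 (-2.31, SE 0.19), CG32052 (-2.15, SE 0.40) and twz (-1.64, SE 0.40). The call of CG32052 was lost without 72 h replicate 1 (-1.92, adjusted p = 0.0994) and that of twz without 72 h replicate 2 (-1.66, adjusted p = 0.625). Of the 15 leucine-rich repeat receptor genes tested, Tl and kek5 were higher, and 18w and Toll-7 were lower (-2.20 and -1.27). Over all genes 0.231% were higher and 0.509% lower. The call of 18w was lost without 24 h replicate 2 (-1.88, adjusted p = 0.213) and without 36 h replicate 2 (-1.34, adjusted p = 1). The median log2 fold change of that list was 0.04, near that of all genes tested.

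**Figure D3:**
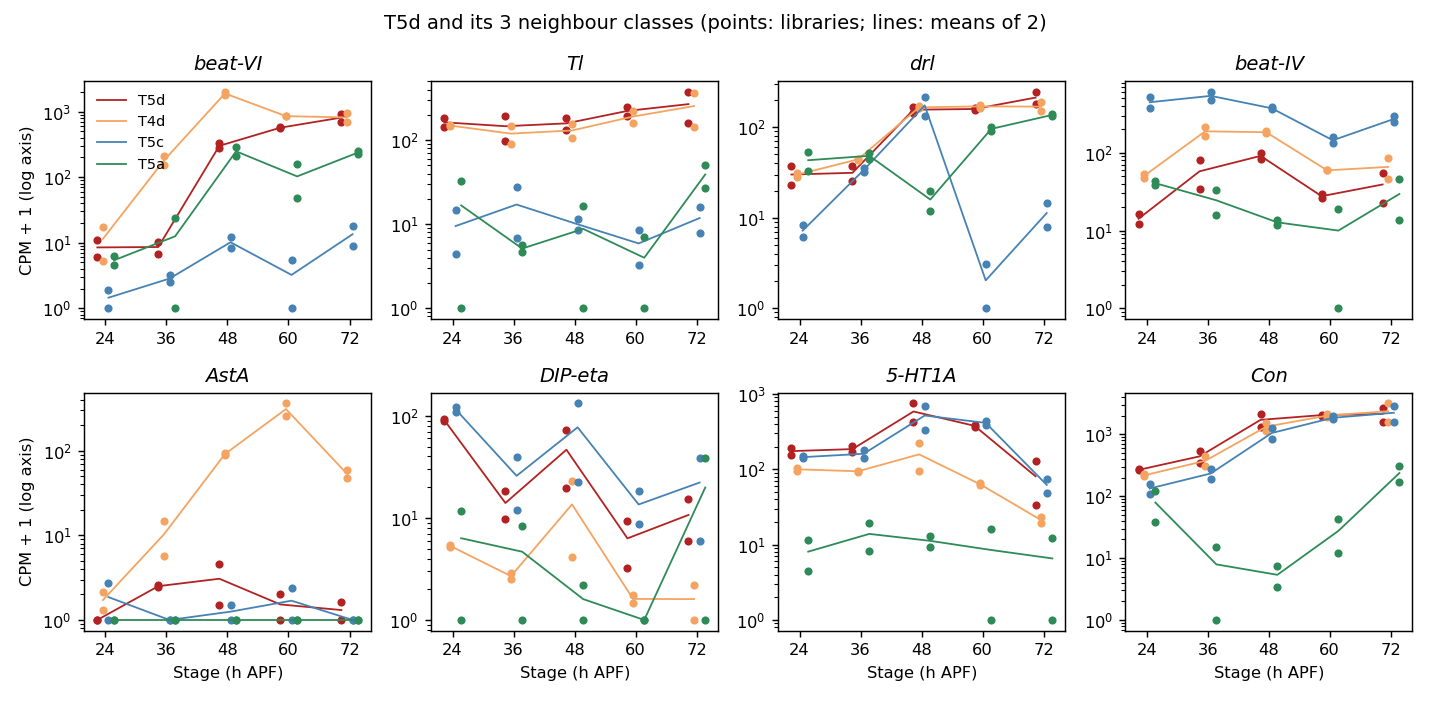
Levels of 8 genes in T5d, T4d, T5c and T5a cells: CPM + 1 on a log axis by stage in hours after puparium formation, with a point per library and lines through the means of 2. beat-VI, Tl and the late values of drl set T5d apart from T5c, AstA and, at 24 h, DIP-eta set it apart from T4d, and Con and 5-HT1A set it apart from T5a.

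The comparison with T4d, which shares the subtype and differs in the type, gave 154 called genes (2.38%), 43 higher in T5d (0.663%) and 111 lower (1.71%). Without the gate genes these counts were 150, 42 and 108. The gene with the highest ratio was CG9628 (FBgn0036433), at 21.0 to 190 CPM in T5d and 1.48 to 22.0 CPM in T4d, and 3.28 on the log2 scale (SE 0.12). Recognition molecules and receptors followed. DIP-eta, an immunoglobulin receptor for Dpr proteins, was 91.6 and 87.6 CPM in T5d at 24 h APF against 4.45 and 4.21 CPM in T4d, and 14.4 and 4.96 CPM against 0/1.20 at 72 h (log2 fold change 2.89, SE 0.31, adjusted p = 4.74e-12). The Kekkon gene kek2 was 403 to 1195 CPM in T5d and 46.7 to 883 CPM in T4d, and T5d was higher in 10 of 10 libraries (1.98, SE 0.04). At 24 h kek2 stood at 558 and 650 CPM against 46.7 and 61.1, and at 72 h at 684 and 1195 CPM against 524 and 883. Its relative kek3 was also higher (2.27, SE 0.31), with most of its UMIs at 72 h.

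Receptor and channel genes higher in T5d than in T4d were 5-HT1A, an inhibitory serotonin receptor (1.75, SE 0.06), mAChR-B, a muscarinic acetylcholine receptor (1.66, SE 0.20), and pHCl-1, a pH-sensitive chloride channel gene (1.58, SE 0.09). The lowest, median and highest libraries of 5-HT1A were 32.4, 197 and 747 CPM in T5d and 18.3, 93.2 and 220 CPM in T4d. The gene pHCl-1 had its highest level at 60 h in both classes, at 2475 and 2394 CPM in T5d and 1453 and 1406 CPM in T4d. Of 15 muscarinic and amine receptor genes tested, 2 were higher and 2 lower (Dop2R and Oct-TyrR), where 0.663% of all genes were higher and 1.71% lower. The list's median of 0.17 compares with -0.01 over all genes. The gene spri, of a Ras effector that activates Rab5, also stood higher in every library, at 20.4 to 60.6 CPM against 0.878 to 11.4 CPM (2.88, SE 0.15).

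Allatostatin A (AstA, FBgn0015591, 3R, 24760530 to 24765071), an inhibitory neuropeptide, was all but absent from T5d. It counted 0/0, 1.45/1.57, 3.62/0.520, 0/1.05 and 0/0.620 CPM over the 5 stages, whereas T4d held 1.11 and 0.324, 4.68 and 13.9, 88.3 and 92.5, 361 and 260, and 46.7 and 58.0 CPM at the same stages. At 60 h the 2 libraries together gave 1 AstA UMI in T5d and 1119 in T4d, a 746-fold difference with an exact 95% counting interval of 134 to 29498. In T5c the highest library was at 1.72 CPM and T5a had 0 UMIs. The fitted mean over the stages was -5.40 (SE 0.49, adjusted p = 8.57e-14), and it leans on counts near 0.

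Further genes lower in T5d than in T4d in 10 of 10 libraries were CG2016 (-5.32), annotated as Jhbp2 in the current release, pyr, a ligand of the fibroblast growth factor receptor Heartless (-5.22), osp (-4.27), twz (-4.10), dpr20 (-4.06), LpR2, a lipophorin receptor gene (-3.73), and Hey, a Notch-responsive repressor gene (-3.56). Several of these had no UMI in T5d at some stages, where the fitted values depend on the prior count of the method and bound nothing. At 72 h, for example, T5d gave 0 twz UMIs against 118 in T4d, which makes twz at least 18.3-fold lower in T5d when 3 UMIs over the stage are allowed for. The level of pyr reached 307 and 116 CPM in T4d at 36 h and 1.45 and 2.36 CPM in T5d. Hey was 190 and 188 CPM in T4d at 72 h and 7.20 and 0.620 CPM in T5d.

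In turn beat-VI was lower in T5d than in T4d on average (-1.6, SE 0.11, adjusted p = 2.39e-19), and the gap was set by 2 stages. At 36 h APF T4d held 207 and 150 CPM of beat-VI where T5d held 5.78 and 9.44, and at 48 h 1780 and 1999 CPM where T5d held 273 and 326. The fold changes of beat-VI were -4.36 (SE 0.28) at 36 h, -2.66 (SE 0.08) at 48 h and -0.05 (SE 0.09, adjusted p = 0.85) at 72 h, when T4d was at 689 and 937 CPM and T5d at 699 and 920. The gene beat-IV was also lower on average (-1.25, SE 0.08), at 11.1/15.2 against 52.3/46.7 CPM at 24 h and 21.6/54.6 against 45.4/84.2 CPM at 72 h.

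Against T5a, 167 genes were called (2.58%), 107 higher in T5d (1.65%) and 60 lower (0.926%). Without the gate genes these counts were 162, 104 and 58. This comparison rests on fewer cells than the others, with 14 T5a cells in 60 h replicate 2 and 19 in 72 h replicate 1. Connectin (Con), a leucine-rich repeat adhesion gene that overlaps 5 genes on its strand, ran from 261 to 2665 CPM in T5d and from 0 to 302 CPM in T5a (log2 fold change 5.14, SE 0.12, adjusted p = 2.08e-46), without overlap within any stage. Con differed little from T5d in T5c (0.57) and in T4d (0.15), and neither reached the 2-fold limit. The ligand gene mav, of the TGF-beta family (FBgn0039914, chromosome 4, 623219 to 626031), had its lowest, median and highest libraries at 1145, 2051 and 3062 CPM in T5d and at 62.8, 120 and 170 CPM in T5a (4.15, SE 0.06). The level of mav, too, stood close to T5d in T4d and T5c, at 0.28 and 0.14 on the log2 scale.

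Also higher in T5d than in T5a in 10 of 10 libraries were CG34353 (4.85, SE 0.18), 5-HT1A (4.68, SE 0.18), Tl (4.09, SE 0.23), 2mit (3.59, SE 0.55), CG42784 (3.16, SE 0.29) and RapGAP1, a GTPase-activating protein gene (3.13, SE 0.09). For 5-HT1A the T5a libraries lay between 0 and 18.4 CPM, below every T5d library. The axon guidance receptor robo2 changed sides with stage: T5d had 488/593 and T5a 623/774 CPM at 24 h APF, and T5d had 363/445 and T5a 15/33.3 CPM at 60 h. For beat-VI the values were 553/582 CPM in T5d and 47.9/156 CPM in T5a at 60 h, and its mean fold change of 1.19 (SE 0.28, adjusted p = 0.00178) was below the limit without 36 h replicate 1 (0.99) and not called by DESeq2 (adjusted p = 0.137).

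Lower in T5d than in T5a were beat-IIIb, a Beaten path gene (-6.34, SE 0.18), sano (-4.96, SE 0.25), the sex peptide and myoinhibitory peptide receptor SPR (-4.66, SE 0.50), Fas2, an immunoglobulin adhesion molecule of axon bundles (-4.59, SE 0.27), CG42339 (-4.27, SE 0.47), Neto, an auxiliary protein of glutamate receptors (-3.74, SE 0.59), CG6959 (-3.73, SE 0.27) and Fili (-3.66, SE 0.27). The lowest, median and highest libraries of beat-IIIb were at 0, 4.79 and 45.9 CPM in T5d and at 216, 794 and 1686 CPM in T5a. For Fas2 they were 4.95, 11.8 and 53.5 CPM against 100, 419 and 1302 CPM, so neither gene overlapped between the classes. The transcription factor gene ab was lower too (-3.53, SE 0.17), at 0 to 186 CPM against 80.5 to 311 CPM. Of 18 Dpr genes tested 3 were higher and 0 lower (median 0.66), and of 13 genes of TGF-beta and Wnt signalling 3 were higher (mav, fz2 and fz; median 0.24). Over all genes 1.65% were higher and 0.926% lower, with a median of 0.10. DESeq2 called 86 genes higher and 86 lower, and stricter gates gave 225 higher and 20 lower with the median of all genes moved by 0.50. The balance of directions thus depends on the settings. Stricter gates left only 1 to 23 T5a cells per library, and the part of this in the shift was not tested.

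With the stages averaged, edgeR called 0 genes higher in T5d than in all 3 neighbours, as did DESeq2. At an unadjusted edgeR p under 0.05 in each comparison, with no fold limit, 44 genes were higher and 21 lower. That looser count is not on the same footing as the calls, and the 3 comparisons share the T5d sums. By the edgeR calls 2 genes were lower, CG45263 and Rh7, the latter a rhodopsin gene. Neither was stable. Rh7 against T5c was -1.11 and fell short of the limit without 36 h replicate 2 (-0.85, adjusted p = 0.526) and without 60 h replicate 1 (-0.98, adjusted p = 0.0504). CG45263 ran from 0 to 118 CPM in T5d, and its difference from T5a was -1.32 with all libraries, -0.41 (adjusted p = 1) without 24 h replicate 2, -2.02 (adjusted p = 0.196) without 36 h replicate 2 and -1.12 (adjusted p = 1) without 48 h replicate 2. Its difference from T4d was -1.03 and missed the 2-fold limit without 24 h replicate 1 (-0.89), 48 h replicate 1 (-0.94) or 60 h replicate 2 (-0.95).

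Taken stage by stage, 14 gene and stage combinations were called the same way against all 3 neighbours, and each lost at least 1 of its calls when 1 library of that stage was left out. Called in either direction were, from 24 to 72 h in order, 1.3, 1.27, 3.64, 4.54 and 4.03% of genes against T4d, 0.586, 0.741, 0.802, 0.802 and 0.602% against T5c, and 2.01, 2.7, 3.9, 3.21 and 2.33% against T5a. CNMaR, hig, CG11319, mspo and CG6959 are also named by the rule for named genes, and the others were chosen after their values were seen. At 24 h APF, CNMaR, olf413, lncRNA:CR45223 and CG34247 were higher. At 36 h CG6959, GstZ2 and hig were lower, at 48 h CG11319 and CG1402 were higher and CG31633, Rgk2 and smal lower, at 60 h CG44837 was lower, and at 72 h mspo was higher. The level of olf413 was 53.2 and 43.8 CPM in T5d, 17.4 and 19.4 in T4d, 20.7 and 23.5 in T5c, and 5.32 and 0 in T5a. Its call against T5c was lost without 24 h replicate 1 (0.91, adjusted p = 0.486) or replicate 2 (1.39, adjusted p = 0.374). CG34247 stood at 7.43 CPM in replicate 1 and 193 CPM in replicate 2 and rests on the latter library: against T5c its log2 fold change was 3.62 with both and -0.18 without it. The values of hig at 36 h were 23.1 and 24.4 CPM against 68.3 and 47.6 in T4d, 231 and 136 in T5c, and 227 and 268 in T5a. The fold change of hig against T4d was -1.18 and missed the limit without 36 h replicate 1 (-0.96, adjusted p = 0.121). At 48 h Rgk2, of the RGK family of small GTPases, was 0.905 and 1.04 CPM in T5d against 22.8 and 25.1 in T4d, 11.2 and 13.7 in T5c, and 86.5 and 66.1 in T5a. The call of Rgk2 against T5c was lost without 48 h replicate 2 (-3.47, adjusted p = 0.138). The values of mspo at 72 h were 583 and 129 CPM against 157 and 26.8 in T4d, 37.5 and 19.9 in T5c, and 327 and 63.0 in T5a, with replicate 1 above replicate 2 in each class. The fold change of mspo against T5a was 1.09 and was not called without 72 h replicate 1 (1.12, adjusted p = 0.0904) or replicate 2 (1.12, adjusted p = 0.0501).

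Set against all other kept cells of the same libraries, most genes called in T5d were lower. A gene expressed by other subtypes only can enter this comparison and can then only be lower in T5d. The split of directions is therefore partly set by the design and is no result about T5d. Of 7497 genes tested 332 were called (4.43%), 14 higher (0.187%) and 318 lower (4.24%). Without the gate genes these counts were 323, 12 and 311. The other kept cells hold the 7 remaining subtypes and also the 3250 cells that met every T5d condition except that on CG34355. Of the other kept cells 71.5% met no class gate. By the rule for named genes only mav, Con and CG32204 were higher in every library, at log2 fold changes of 1.32 (SE 0.02), 1.31 (SE 0.03) and 1.13 (SE 0.04), and with stricter gates CG32204 fell short of the 2-fold limit (0.88). The level of mav was 3062 and 2859 CPM in T5d against 1285 and 1326 CPM in the rest at 24 h APF, and 1145 and 1181 against 376/466 CPM at 72 h. CG32204 ran from 181 to 457 CPM in T5d and from 82.2 to 228 CPM in the rest. In 9 of 10 libraries 5-HT1A (1.45, SE 0.04) and robo2 (1.12, SE 0.03) were also higher.

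Genes called lower included the peptide receptor genes SPR, Pdfr and AstA-R1 and the neuropeptide genes AstA, Mip, Dh31 and sNPF. A gene expressed by other subtypes only could enter this comparison through the other kept cells and then had to be lower in T5d, so no count or median over a list is given for it. Among the genes that the rule names, ana was detected with 2 UMIs in all T5d cells and 7573 in the rest, a 156-fold difference per UMI with an exact 95% counting interval of 43.2 to 1288. CG15537 was 0 to 3.72 CPM in T5d and 1.18 to 258 CPM in the rest (-7.63, SE 0.30). The long non-coding RNA lncRNA:CR44978 was 6.19 and 10.2 CPM against 297/317 CPM at 24 h (-6.29 over all stages, SE 0.20). pyr, CG2016, SPR, beat-IIIb, osp, dpr5 (-5.06, SE 0.29) and Cbp53E, a calcium-binding protein gene (-4.96, SE 0.53), completed the rule, and each was lower in 10 of 10 libraries.

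Stages were compared within T5d, in a fit across libraries without a block, so its counts are not on the same footing as those between classes. The fold changes include a scaling of the libraries (TMM) that the printed CPM lack. From 24 to 72 h the fold changes quoted below therefore lie above the ratios of the printed CPM. Between 24 and 72 h APF 2149 of 6032 genes were called (35.6%), 1115 rising (18.5%) and 1034 falling (17.1%). The step from 24 to 36 h gave 127 genes (2.11%), 88 rising (1.46%) and 39 falling (0.647%). The step from 36 to 48 h gave 476 (7.89%), 282 rising (4.68%) and 194 falling (3.22%), that from 48 to 60 h 561 (9.3%), 333 rising (5.52%) and 228 falling (3.78%), and that from 60 to 72 h 300 (4.97%), 185 rising (3.07%) and 115 falling (1.91%). Without a library of 24 or 36 h the first of these counts was 52 to 76. The second was 248 without 36 h replicate 2, the third 284 and 289 without 60 h replicate 1 or 2, and the last 105 and 128 without those libraries. Stage and library preparation cannot be told apart, since each library holds a single stage.

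Genes of the ecdysone cascade moved in sequence. Of 13 tested 6 rose and 5 fell between 24 and 72 h, where 18.5% of all genes rose and 17.1% fell. The early gene br, of the Broad factors, was 1402/1258 CPM at 24 h APF, 88.2/82.6 at 36 h, and between 1.81 and 13 CPM from 48 h onwards (log2 fold change -3.89 from 24 to 36 h, SE 0.29, adjusted p = 0.00011). Blimp-1, which encodes a repressor that times the next factors, was 942/1005, 3821/2618, 707/618, 2.93/0 and 0/0.620 CPM over the 5 stages. Its fall from 48 to 60 h was called (-8.35, SE 0.55, adjusted p = 6e-06), and its rise from 24 to 36 h (1.81, adjusted p = 0.0164) was lost without 24 h replicate 1 (1.74, adjusted p = 0.242), 24 h replicate 2 (1.89, adjusted p = 0.194) or 36 h replicate 1 (1.46, adjusted p = 0.154).

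The nuclear receptors followed. Hr3 had 0 UMIs at 24 h, then 217/127 CPM at 36 h, 1146/1517 at 48 h, 1145/1256 at 60 h, and 540/759 CPM at 72 h, an increase of at least 126-fold from 24 to 36 h when 3 UMIs over the libraries of 24 h are allowed for. Hr3 overlaps 3 genes on its strand. Hr4 was 17.3/12.1, 2760/2431, 8012/9025, 1431/1556 and 342/448 CPM over the 5 stages, and its rise from 24 to 36 h (7.57, SE 0.34) and its falls from 48 to 60 h (-2.34, SE 0.26) and from 60 to 72 h (-1.84, SE 0.26) were called. The gene ftz-f1, of a competence factor that follows the ecdysone peak and overlaps 3 genes on its strand, was 0/0, 1.45/0, 0/0.520, 1501/1688 and 3702/3830 CPM over the 5 stages. From 48 to 60 h ftz-f1 went from 1 to 3656 UMIs, a 4779-fold difference with an exact 95% counting interval of 857 to 188804. Its further rise from 60 to 72 h (1.31, adjusted p = 0.0303) was lost without 60 h replicate 1 (1.20, adjusted p = 0.337) or replicate 2 (1.40, adjusted p = 0.217), and narrowly without 24 h replicate 1 (adjusted p = 0.0522) or replicate 2 (adjusted p = 0.0515).

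**Figure D4:**
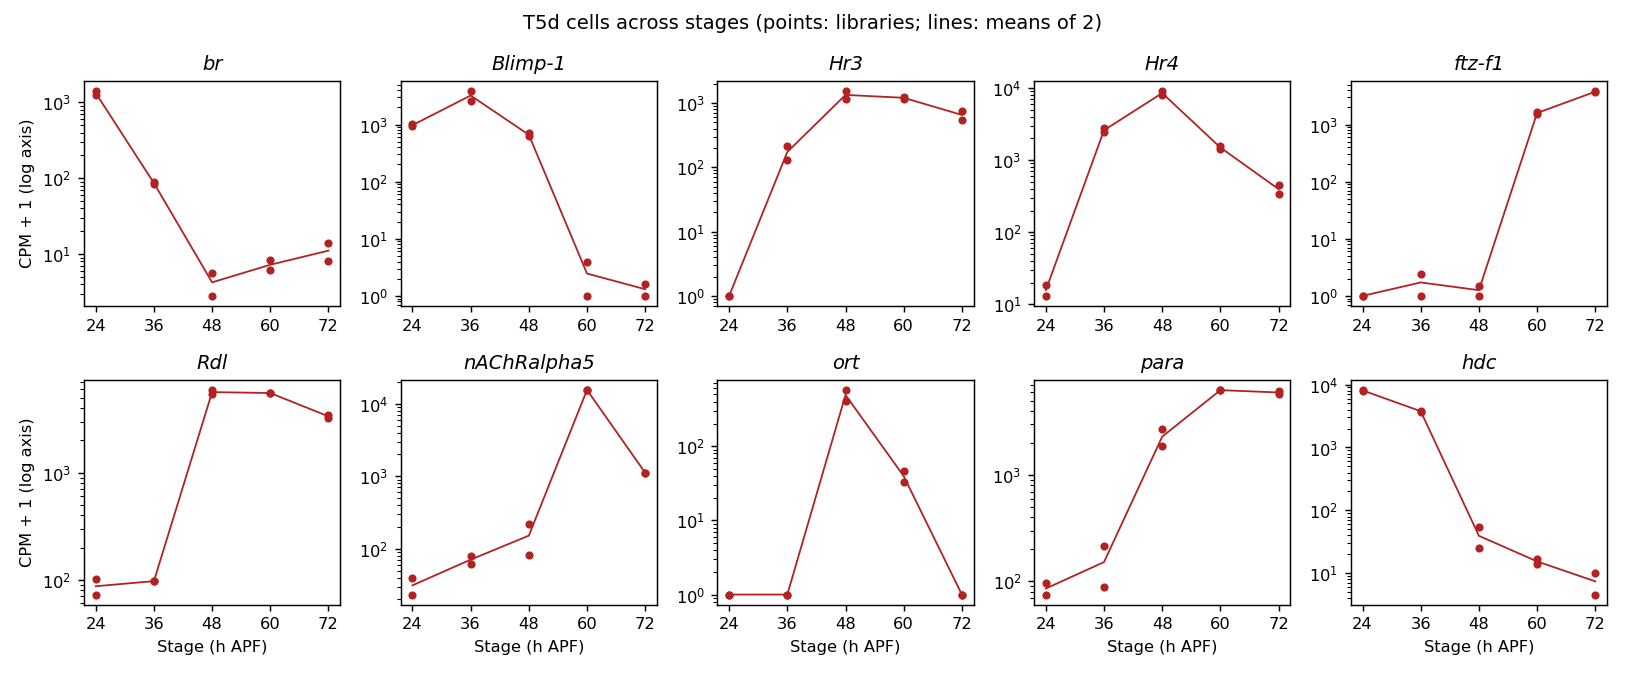
Levels of 10 genes in T5d cells: CPM + 1 on a log axis by stage in hours after puparium formation, with a point per library and lines through the means of 2. br, Blimp-1, Hr3, Hr4 and ftz-f1 have their highest values at 24, 36, 48, 48 and 72 h, Rdl steps up at 48 h, and nAChRalpha5 and ort peak at 60 h and 48 h.

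In the lists below only genes that passed the low-count filter are counted, and a gene present at 1 stage only could pass through that stage, so the counts describe the genes tested. Nearly all listed sodium, calcium and Ih channel genes rose. Of 16 sodium, calcium and Ih channel genes tested 15 rose and 0 fell between 24 and 72 h, with a median log2 fold change of 4.08 against -0.01 over all genes. Between these stages 18.5% of all genes tested rose and 17.1% fell. The gene para, of the voltage-gated sodium channel (X, 16455027 to 16533096), which overlaps 4 annotated features on its strand, was 74.3/95.2, 214/88.1, 1858/2733, 6250/6312 and 6197/5744 CPM over the 5 stages. The values of 24 and 36 h overlapped, and those of 48 and 60 h lay well above them. The rise of para from 36 to 48 h was 4.04 (SE 0.44, adjusted p = 0.000165), and that from 48 to 60 h (1.62) was lost without 48 h replicate 1 (1.34, adjusted p = 0.117), 60 h replicate 1 (1.64, adjusted p = 0.109) or 60 h replicate 2 (1.59, adjusted p = 0.123). The calcium channel gene of presynaptic terminals, cac, was 321/319 CPM at 24 h and 2956/3137 CPM at 72 h (3.68, SE 0.28). Ih, the gene of the hyperpolarisation-activated current, dipped before it rose, at 225 and 223, 10.1 and 11, 233 and 188, 640 and 714, and 1725 and 805 CPM over the stages. Both its fall from 24 to 36 h (-4.32, SE 0.41, adjusted p = 0.000174) and its rise from 36 to 48 h (4.41, SE 0.41, adjusted p = 6.64e-05) were called.

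Of 15 potassium channel genes 12 rose, and only Task6, a 2-pore channel gene, fell (-1.41, SE 0.28), from 406 and 356 to 75.6 and 128 CPM. The calcium-activated channel gene slo went from 4.95/1.90 CPM at 24 h APF to 2150/2984 CPM at 72 h (10.09, SE 0.67). The median of the list was 2.34, and over all genes 18.5% rose and 17.1% fell.

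The genes of transmitter release and of acetylcholine, the transmitter of these neurons, rose as well. Of 16 release genes 12 rose and 0 fell (median 1.88), and all 4 cholinergic genes rose (median 2.56). Shares over all genes were 18.5% rising and 17.1% falling. The active zone scaffold gene brp was 312/457 CPM at 24 h APF and 1797/1857 at 72 h (2.67, SE 0.34), and Syt1, the calcium sensor gene of release, 276 and 295 and then 1577 and 1670 CPM (2.93, SE 0.28). ChAT, the gene of the synthesising enzyme, was 50.7/35.5 CPM at 24 h and 187/250 CPM at 72 h (2.81, SE 0.25), and VAChT, of the vesicular transporter, went from 196 and 241 to 742 and 882 CPM (2.32, SE 0.24). For both, the replicates of the 2 stages were far apart compared with the spread between them.

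Receptor genes switched on at different stages. From 24 to 72 h 18.5% of all genes rose and 17.1% fell. Of 9 nicotinic subunits tested 5 rose and 2 fell, of 7 inhibitory receptor genes 5 rose and 0 fell, and of 14 muscarinic and amine receptor genes 8 rose and 1 fell. The latter was Octbeta1R (-1.74), not called by DESeq2 (adjusted p = 0.0969) or without 24 h replicate 1 (adjusted p = 0.0915), 24 h replicate 2 (adjusted p = 0.0503) or 72 h replicate 2 (-1.17, adjusted p = 0.370). Rdl, the GABA receptor subunit (3L, 9145838 to 9182149), was 100/71.7, 95.4/96.7, 5389/5936, 5553/5546 and 3223/3493 CPM over the 5 stages, and its step from 36 to 48 h was 5.99 (SE 0.29, adjusted p = 1.71e-06). The subunit gene nAChRalpha5 was 22.3 and 38.1, 79.5 and 59.8, and 81.5 and 219 CPM at the first 3 stages, 15565/15521 CPM at 60 h, and 1116/1118 CPM at 72 h. Both its rise from 48 to 60 h (6.84, SE 0.53, adjusted p = 1.07e-05) and its fall from 60 to 72 h (-3.73, SE 0.45, adjusted p = 0.000614) were called. The histamine-gated chloride channel gene ort (3R, 19659748 to 19663672), known from the targets of photoreceptors, was at 0 at 24, 36 and 72 h, at 572/405 CPM at 48 h, and at 45.4/31.5 CPM at 60 h. The gene ort rose at least 305-fold from 36 to 48 h and fell at least 25.0-fold from 60 to 72 h, with 3 UMIs over a stage allowed for. The falls of nAChRalpha6 (-3.73) and nAChRalpha7 (-1.36) between 24 and 72 h were lost without 72 h replicate 2 (-1.51, adjusted p = 0.134, and -1.39, adjusted p = 0.108), and that of nAChRalpha7 also without 24 h replicate 2 (-1.27, adjusted p = 0.0503).

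Among recognition molecules most called members of the Dpr, Sidestep and Beaten path families rose. Of 17 Dpr genes tested 10 rose and 1 fell (dpr20), of 6 Sidestep genes 4 rose, and of 6 Beaten path genes 4 rose and 1 fell (beat-IIb, -1.91). Beside these stand 18.5% of all genes rising and 17.1% falling. The level of dpr11 was 0/0.635, 2.89/17.3, 358/431, 809/855 and 223/250 CPM over the 5 stages. Its rise from 36 to 48 h was 5.23 (SE 0.45, adjusted p = 4.34e-05), and its fall from 60 to 72 h (-1.74, adjusted p = 0.0158) was lost without 60 h replicate 1 (-1.81, adjusted p = 0.0968) or replicate 2 (-1.69, adjusted p = 0.128). The level of side-V went from 6.19 and 6.35 to 144 and 140 CPM between 24 and 72 h (4.89, SE 0.32). The level of beat-VI rose by 5.34 (SE 0.35) from 36 to 48 h. Dscam4 kept values from 440 to 1334 CPM up to 60 h and fell from 1213/1334 CPM at 60 h to 25.2/12.4 CPM at 72 h (-6.27, SE 0.46, adjusted p = 2.08e-05). The change of beat-IV between 24 and 72 h was lost without 72 h replicate 2 (1.08, adjusted p = 0.315).

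Guidance and adhesion genes moved in both directions. Of 17 guidance genes, called about as often as all genes (18.5% rising and 17.1% falling), 4 rose (drl, Drl-2, Sema2a and dnt) and 3 fell (Sema2b, Sema1b and unc-5), and of 19 other adhesion genes 7 rose and 4 fell. Sema2b, a secreted semaphorin gene, fell from 392/409 CPM at 24 h APF to 36.0/31.0 CPM at 72 h (-3.20, SE 0.26), and Ten-m, a teneurin gene, from 412 and 393 to 119 and 107 CPM (-1.42, SE 0.23). The fall of unc-5 (-1.29) was lost without 72 h replicate 2 (-1.09, adjusted p = 0.148). CadN2, a cadherin gene, rose from 0 and 0 to 39.6 and 38.5 CPM.

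Most listed genes of axon growth and the cytoskeleton fell. Of 12 such genes 7 fell and 1 rose, with a median of -1.09, where 17.1% of all genes fell and 18.5% rose. The cofilin gene tsr was 2093/2457, 1538/1857, 391/388, 48.3/48.3 and 32.4/30.4 CPM over the 5 stages (-5.77 from 24 to 72 h, SE 0.27, adjusted p = 1.89e-07). Act5C, a cytoplasmic actin gene, fell from 2654 and 2318 to 72.0 and 101 CPM (-4.38, SE 0.27), and chic, the profilin gene, from 1481 and 1408 to 54.0 and 81.3 CPM (-3.93, SE 0.25). The microtubule-associated gene futsch rose, from 698 and 770 to 1581 and 1281 CPM (1.39, SE 0.25).

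**Figure D5:**
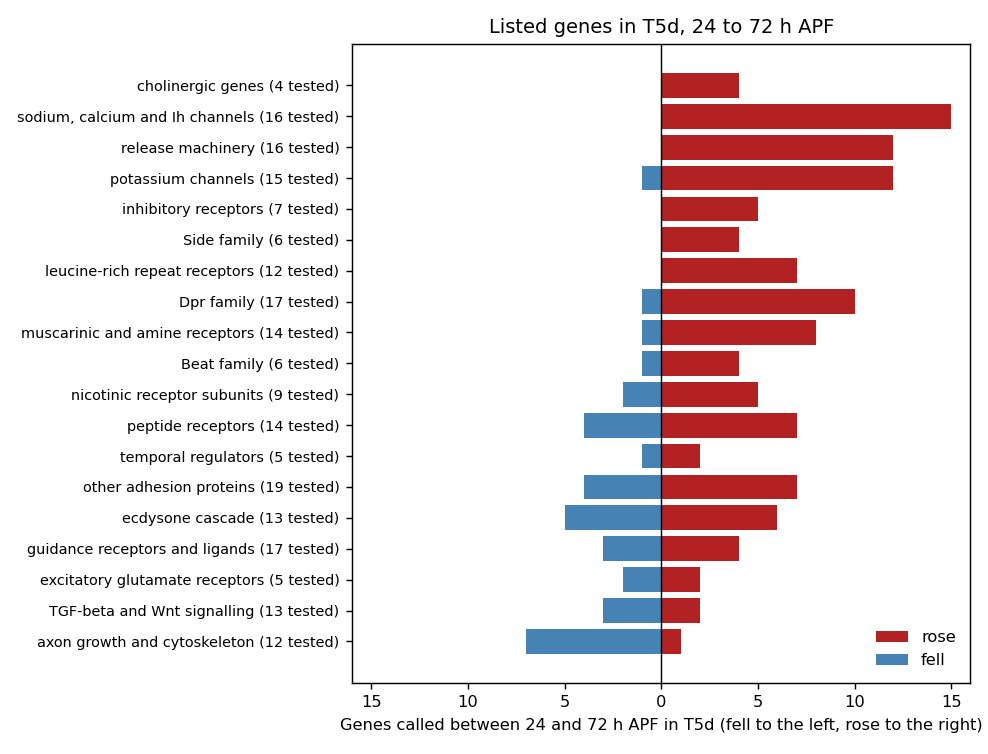
Listed genes called between 24 and 72 h APF in T5d: for each gene list with at least 4 genes tested (number in brackets), the number that rose (right) and fell (left). Of the sodium, calcium and Ih channel genes 15 of 16 rose, and of the axon growth and cytoskeleton genes 7 of 12 fell. Over all genes 18.5% rose and 17.1% fell.

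By fold change the genes that rose most from 24 to 72 h were ftz-f1, Tob, CG12769, Hr3, ps, bma, SIFaR, CG42327, Calx and Syt12. All but ps had 0 UMIs at 24 h, and their increases were at least 3028-fold for ftz-f1, 789-fold for Tob, an antiproliferative factor gene, 668-fold for CG12769, 577-fold for Hr3, 486-fold for bma, 389-fold for the SIFamide receptor gene SIFaR, 286-fold for CG42327, 214-fold for the sodium and calcium exchanger gene Calx, and 220-fold for the synaptotagmin gene Syt12. The gene ps, of a splicing regulator, was 0/3.17, 31.8/6.29, 756/822, 8182/8800 and 11703/10848 CPM over the 5 stages (12.77, SE 0.84). Tob and CG12769 were below 6 CPM up to 48 h in every library and between 415 and 1053 CPM at 60 and 72 h.

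The genes that fell most were twz, jumu, Blimp-1, hdc, otk2, CG3408, dpr20, Myc, LpR2 and CG8036. The gene hdc (FBgn0010113, the gene headcase, now named heca, and not the histidine decarboxylase gene hdc) was 8217/7953, 3714/3822, 52.5/24.4, 13.2/15.8 and 3.6/9.31 CPM over the 5 stages (-9.53, SE 0.47, adjusted p = 1.89e-07). Its largest step was that from 36 to 48 h (-6.54, SE 0.39). The forkhead factor gene jumu and the growth regulator gene Myc had no UMI at 72 h and were at least 98.0-fold and 27.7-fold lower than at 24 h. CG3408 went from 401 and 441 CPM to 0 and 0.620 CPM. The zinc finger gene mamo, listed with the temporal regulators, fell from 4304 and 4061 CPM to 10.8 and 25.4 CPM (-7.19, SE 0.46), and zld, another zinc finger factor gene, rose from 3.71 and 1.27 CPM to 248 and 323 CPM (7.42, SE 0.45).

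The single steps brought up further genes. From 24 to 36 h CG33543 rose (7.17, SE 0.64) beside Hr3 and Hr4, and CG11317 fell (-6.38, SE 0.64). Octalpha2R fell (-5.50), from 38.4 and 22.2 to 0 and 0.786 CPM, and was later higher than before, at 353/594 CPM at 72 h. Its first fall was lost without 36 h replicate 2 (-7.85, adjusted p = 0.0722). Nckx30C, a sodium, calcium and potassium exchanger gene, had 22.3/20.9 CPM at 24 h, 0/0 at 36 h, and 1659/1554 CPM at 60 h, and its early fall (adjusted p = 0.0271) was lost without either library of 24, 36 or 60 h, at adjusted p from 0.0512 to 0.213. From 36 to 48 h Apoltp, a lipid transfer particle gene, and fid rose beside ort, and Sox14 fell (-7.28, SE 0.56) beside hdc and jumu. Apoltp was 0/0 at 36 h and 148/209 CPM at 48 h, at least a 122-fold increase.

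From 48 to 60 h CG8861 (9.62, SE 0.49) and rho (8.78, SE 0.82) rose beside ftz-f1, and tok, which encodes a Tolloid-type protease, fell from 34.4 and 34.3 CPM to 0 and 0, at least 26.5-fold. Trim9 fell as well, from 56.1 and 9.87 CPM to 0 and 0, but not without 60 h replicate 1 (-8.14, adjusted p = 0.103) or replicate 2 (-8.20, adjusted p = 0.061). From 60 to 72 h CG2016 rose from 0 and 0 to 184 and 171 CPM, at least 134-fold, CG15772 from 0 and 0 to 64.8 and 62.0 CPM, at least 48.2-fold, and CG13907 from 0 and 0 to 57.6 and 44.7 CPM. TkR86C, a tachykinin-related peptide receptor gene, and CG8564 fell to 0 beside ort. The call of TkR86C was lost without 72 h replicate 2 (-8.56, adjusted p = 0.0798), and that of CG8564 without 72 h replicate 2 (-8.59, adjusted p = 0.144) or 60 h replicate 1 (-8.22, adjusted p = 0.0961).

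Markers of other cells that moved with the stages were nrv2 and norpA. The gene nrv2, listed with the glial genes, was 32.2/34.9 CPM at 24 h APF, 433/380 at 60 h, and 202/288 CPM at 72 h, while norpA, listed with the photoreceptor genes, was 95.3/80.0 CPM at 24 h and 604/599 CPM at 60 h. The other kept cells moved with them, with sums of up to 451 CPM for the glial list and 782 CPM for the photoreceptor list. Heat shock transcripts and the dosage compensation RNAs roX1 and roX2 moved with the stages too. The median T5d cell held 4.45/3.16% heat shock transcripts at 24 h and 0.418/0.625% at 72 h (3.81/3 and 0.392/0.779% in the other kept cells). A roX UMI was found in 29.9/36.1% of T5d cells at 24 h and in 59.3/52.1% at 72 h (35.3/38.4 and 64.5/55.1% in the other kept cells), without correction for depth, and both roX RNAs rose. The part of all these in the stage differences was not tested.

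The difference of T5d from the other kept cells itself changed between 24 and 72 h for 189 of 7497 genes (2.52%), 78 upward (1.04%) and 111 downward (1.48%). CG9331 is an example: T5d and the rest were close at 24 h, at 96.5 and 99.6 against 101 and 96.9 CPM, and at 72 h T5d had 0 and 1.24 CPM where the rest had 71.2 and 82.7 (change of the log2 difference -6.34, SE 0.44, adjusted p = 3.32e-43). The subunit gene nAChRalpha6 was 35.9 and 45.7 against 85.2/58.5 CPM at 24 h and 10.8 and 0.620 against 129/81.3 CPM at 72 h (-4.80, SE 0.45), and Oct-TyrR, an octopamine and tyramine receptor gene, 6.19 and 11.4 against 5.62 and 7.98 and then 0 and 2.48 against 26.1 and 35.7 CPM (-4.53, SE 0.63). CNMaR lost its excess, at -4.59 (SE 0.99, adjusted p = 0.000153), a call that was not kept without 72 h replicate 2 (-11.83). The call was also lost by DESeq2 (-4.47, adjusted p = 0.0536), with stricter gates (-10.54, adjusted p = 0.155) and without the block (-5.05, adjusted p = 0.0780).

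Among T5d cells of 1 library, 6 genes were among the 15 with the highest variance over the mean in 10 of 10 libraries, with every cell thinned to 1000 UMIs. The median over the libraries was 5.63 for Hsp23, 4.43 for lncRNA:Hsromega and 4.26 for Hsp26, which are stress genes, 3.82 for lncRNA:noe, and 2.91 and 2.85 for lncRNA:roX2 and lncRNA:roX1, dosage compensation RNAs of males. In the other kept cells the medians were 5.46, 4.60, 4.07, 6.11, 2.94 and 3.18. CG17778 was among the 15 in 2 libraries, with a median of 14.6 in T5d and 13.5 in the other kept cells. Obp44a, an odorant-binding protein gene, was among them in 6 libraries, with a median of 11.1 in T5d and 58.0 in the other kept cells.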

How the data were processed

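The deposited counts are UMI counts per gene and barcode, made by the authors with Cell Ranger 3 and the Ensembl 97 annotation (72871 barcodes, 17757 genes). Values of the gated cells were summed per library and class, and depth followed the sums (277704 to 1924683 UMIs for T5d); CPM are shares of those sums, and intervals and floors of 3 UMIs cover counting error only. T4d required at least 2 UMIs of the T4 genes and 0 of CG34355, T5c at least 2 of grn and side-IV with at most 1 of side-II, and T5a at least 3 of dac and Dscam3 with at most 1 of pros and bi and at least 2 of side-II. No doublet caller was run. Sums were tested with edgeR 4.0.16 (quasi-likelihood, TMM, filterByExpr; R 4.3.3), for classes with the library as a block and for stages without one, since the replicate numbers do not pair the libraries. A call needed an adjusted p under 0.05 and a 2-fold change. Each SE was calculated back from the test, as the absolute log2 fold change over the square root of the F statistic. Alternatives were DESeq2 1.42.0, RLE size factors, no low-count filter, at least 2000 UMIs per cell, stricter gates, the removal of cells above 2 times the median UMIs, the other block setting, adjusted p alone, and each library left out. Thinning used seed 20. The fits were tested on simulated data, with a spread that was set and not taken from the libraries. Of changes simulated at a log2 fold change of 1, 46.4% were recovered from 24 to 72 h at an adjusted p under 0.05. The recovered shares were 87.8% against the other kept cells and 95.7% against T4d. At a log2 fold change of 2 the shares were 92.0, 97.9 and 100% in the same order.

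The members, gene lists and tests were chosen with earlier results of these data known. Named genes were the called genes with the highest and lowest fold changes, of the same sign in 10 of 10 libraries and at 20 CPM or more in the higher class: 10 each way against the other kept cells, 8 against each related class, 10 from 24 to 72 h, 3 per step (replicates not overlapping) and 5 for the change of the difference, beside examples from the lists, genes called the same way against all 3 classes, and CNMaR. Genes of the gate were fitted and enter the counts and shares of called genes, but none is reported as a result. Positions are from BDGP6.54, release 115, in which 17626 of 17757 gene identifiers were found, and they may differ from the annotation the authors counted with.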

Additional observations from a re-analysis of the deposited data

Results flagged for a closer look

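For 11 genes the difference between T5d and the other kept cells itself changed between 24 and 72 h, by the interaction test of edgeR. The values are changes of the log2 difference.

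The difference rose for DIP-beta by 9.27, for SPR by 9.01, for bma by 8.30, for CG2016 by 8.21 and for lncRNA:CR43334 by 8.14. In all 5 genes T5d had 0 UMIs at 24 h, so these sizes depend on the prior count of the method. Leaving out a library of 24 h ended the calls of bma (adjusted p = 0.188 without replicate 1 and 0.158 without replicate 2), CG2016 (0.0750 and 0.431), lncRNA:CR43334 (0.155 and 0.324) and, without replicate 2, SPR (0.224). The call of DIP-beta was kept without any one library but not with stricter gates (adjusted p = 0.0812) or without the block (adjusted p = 0.170). DESeq2 did not call bma (adjusted p = 0.0885), CG2016 (0.454) or lncRNA:CR43334 (0.123). Stricter gates and the fit without a block also ended the calls of bma, CG2016, lncRNA:CR43334 and SPR.

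The change was -10.70 for twz, which had 0 UMIs in T5d at 72 h and was not called without 72 h replicate 2 (-9.89, adjusted p = 0.462). For CG9331 it was -6.34, for nAChRalpha6 -4.80 and for Oct-TyrR -4.53, and these 3 calls were kept without any one library. That of nAChRalpha6 was lost without the block (adjusted p = 0.193) and that of Oct-TyrR with stricter gates (adjusted p = 0.122). For CNMaR it was -4.59, not called without 72 h replicate 2, by DESeq2, with stricter gates or without the block. The change of -5.61 for twit (adjusted p = 0.0472) was lost under 9 of the 10 left-out libraries and was -0.41 (adjusted p = 1) without 24 h replicate 1.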

How the results depend on the processing

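Counts of called genes depended on the settings as follows, and the cause was not tested. Without the library as a block the counts were 213 against the other kept cells, 31 against T5c (14 higher, 17 lower) and 26 for the change of the difference between 24 and 72 h (8 upward, 18 downward), and 112 against T4d and 129 against T5a. By adjusted p alone they were 1127 against the other kept cells, 982, 166 and 495 against T4d, T5c and T5a, and 417 for the change of the difference. Without a low-count filter 237 genes were called from 24 to 36 h and 479 from 60 to 72 h. Stricter gates gave 78 from 24 to 36 h, 189 from 60 to 72 h (97 rising, 92 falling) and 101 for the change of the difference (29 upward, 72 downward), where DESeq2 gave 113. Against T5c stricter gates gave 19 higher and 16 lower, and the removal of high-UMI cells 18 and 24. Relative to the analysis described, the median of all genes moved by -0.15 from 24 to 72 h and by -0.16 for the change of the difference under stricter gates, and by -0.19 (60 to 72 h), -0.18 (24 to 72 h) and -0.12 without 72 h replicate 2.

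With 1 library left out the counts ran from 52 to 148 (24 to 36 h), 248 to 561 (36 to 48 h), 284 to 641 (48 to 60 h), 105 to 331 (60 to 72 h) and 1754 to 2243 (24 to 72 h), from 271 to 331 against the other kept cells, 134 to 161 against T4d, 40 to 53 against T5c and 141 to 173 against T5a, and from 135 to 189 for the change of the difference. The replicate numbers did not pair the libraries (r from -0.209 to 0.451 over 10 pairs of stages). With the replicate number as a block the stage counts were 134, 511, 571, 311 and, from 24 to 72 h, 2192.

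Of 300 gene results, 231 kept their call under every left-out library. Calls were lost for 45 of 284 results with stricter gates, 46 of 159 without the block, 21 of 296 by DESeq2, and, of 300, 4 with high-UMI cells removed, 2 without the filter, 1 with RLE size factors and 1 with at least 2000 UMIs per cell. Directions turned for 3 results. CG45263 against T5a was 2.33 (adjusted p = 0.322) with stricter gates, which left 1 to 23 T5a cells per library. CG44837 against T5a at 60 h ran from -2.87 to 3.80 and CG34247 against T5c at 24 h from -0.18 to 4.42 with 1 library left out. Stricter gates also ended the calls of SPR, CG42339 and Fili against T5a and of CG34155 against T5c (each adjusted p = 1), and the fit without a block that of Toll-7 against T5c (-1.34, adjusted p = 0.614) and DIP-eta against T5a (adjusted p = 0.164). Depth limits 72 h replicate 1 and the T5a sums most.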
